A study of Homo sapiens with 2 samples.

Results

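The genes described here encode the machinery of cell division: the mitotic spindle, the kinetochores that attach chromosomes to it, the kinases and checkpoint proteins that time chromosome separation, and the condensins and cytokinesis factors that finish the process. The list held 58 genes by symbol. Of these, 57 had a transcript cluster that named them alone, out of 22348 genes and 67524 transcript clusters on the array, and where a gene had several, the brightest on average was taken. The cluster of BUB1B, a checkpoint kinase, also named PAK6 and was not counted.

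Transcript levels were measured in OAW42, a human serous ovarian carcinoma line sensitive to cisplatin, and in OAW42-R, its cisplatin-resistant counterpart, which was derived from OAW42 by repeated cisplatin exposure with recovery between exposures. Both lines were grown under identical normal conditions with insulin and serum and without drug, and 1 RNA sample per line was hybridised to 1 array. Whether OAW42-R is a single clone was not given in the sources used here. The comparison asked how transcript levels of the resistant line differ from those of its sensitive parent.

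Mitosis is driven by genes whose transcripts accumulate in the G2 and M phases. In resting and early cycling cells their promoters are held silent by the DREAM complex, and later they are activated by the MYBL2-MuvB complex and FOXM1, through a cell cycle homology region (CHR) and CCAAT boxes close to the start of the gene. Because these transcripts come and go with the cycle, their bulk level follows the share of cells in G2 and M. In carcinoma lines they are abundant, and proteins they encode, such as Aurora kinases, PLK1 and KIF11, are drug targets.

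Signals were log2 values, so a difference of 1 is 2-fold, and every difference is OAW42-R minus OAW42. The floor was set at the median of all clusters on an array (6.34 in OAW42-R and 6.30 in OAW42), and genes whose brighter array reached it were kept. They numbered 15910, among them all 57 measured members. With 1 array per line no difference has a replicate error or a test. The values describe these arrays, and with 1 sample each the state of a culture cannot be told apart from the line. Signals of different genes come from different probes and are not compared.

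The identity of the cultures was checked with marker genes. PAX8, EPCAM, KRT8 and KRT18 were bright in both lines (10.03 to 11.67). All 10 ovarian serous carcinoma markers were above the floor, although WT1, MUC16 and WFDC2 lay between 6.74 and 6.96. Of the 10, 4 (40%) were lower in OAW42-R, against 49.7% of all genes, and 6 were higher, with a list median of 0.025. EPCAM differed most, with 10.70 in OAW42-R and 10.03 in OAW42 (0.67), and PAX8 had 11.67 and 11.40 (0.27). Markers of fibroblasts (3 of 7 above the floor), leukocytes (4 of 7), endothelial cells (3 of 7) and mesothelial cells (3 of 5) had list medians of -0.03, -0.05, 0 and 0.39. Below the floor were DCN, LUM, PDGFRA and FAP of fibroblasts, PTPRC, LYZ and CD2 of leukocytes, PECAM1, KDR, TEK and EMCN of endothelial cells, and CALB2 and ITLN1 of mesothelial cells. Above it were COL1A1 (7.83 in OAW42-R and 7.91 in OAW42), COL1A2 (6.72 on both arrays) and PDGFRB (6.73 and 6.76) of fibroblasts. Of leukocytes they were CD68 (10.47 and 10.56), ITGAM (6.60 and 6.62), CD14 (6.43 and 6.36) and CD3E (6.32 and 6.4), and of endothelial cells CLDN5 (8.06 on both arrays), VWF (6.77 and 6.82) and CDH5 (6.73 and 6.70). Mean signals over each whole list were 5.45 in OAW42-R and 5.41 in OAW42 for fibroblasts, 6.24 on both arrays for leukocytes, 5.75 and 5.73 for endothelial cells and 8.01 and 7.76 for mesothelial cells. The mesothelial median rests on LRRN4 (0.91), DES (0.39) and UPK3B, which was bright and equal (11.38 on both arrays). The part of other cells in the members' differences was not tested.

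The promoters of 4 members are shown to make these elements visible, with the TTTGAA or TTCGAA letters of the CHR and the CCAAT letters in capitals, on either strand (TTCAAA and ATTGG on the other). They are those of CENPA and ANLN, the members with the lowest differences among members in the promoter table, of KIF15, the member with the highest, and of NUSAP1, a member with both elements and a difference at the middle of the list. Each is the RefSeq window of 250 bases before to 50 bases after the gene start in GRCh38.p14, all on the plus strand: chr2:26785806-26786105, chr7:36389612-36389911, chr3:44761544-44761843 and chr15:41332631-41332930.
CENPA: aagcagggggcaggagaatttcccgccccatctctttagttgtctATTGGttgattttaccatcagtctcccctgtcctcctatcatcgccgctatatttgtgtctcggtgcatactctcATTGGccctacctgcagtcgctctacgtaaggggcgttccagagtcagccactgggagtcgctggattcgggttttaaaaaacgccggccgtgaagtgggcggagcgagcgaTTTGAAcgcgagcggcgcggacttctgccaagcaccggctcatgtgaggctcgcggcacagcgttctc
ANLN: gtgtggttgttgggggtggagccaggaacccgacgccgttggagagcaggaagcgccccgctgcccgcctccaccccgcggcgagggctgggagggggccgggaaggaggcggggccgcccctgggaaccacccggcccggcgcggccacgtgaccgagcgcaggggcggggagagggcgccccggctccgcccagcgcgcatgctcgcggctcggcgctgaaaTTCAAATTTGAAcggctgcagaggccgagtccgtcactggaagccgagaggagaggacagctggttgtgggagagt
KIF15: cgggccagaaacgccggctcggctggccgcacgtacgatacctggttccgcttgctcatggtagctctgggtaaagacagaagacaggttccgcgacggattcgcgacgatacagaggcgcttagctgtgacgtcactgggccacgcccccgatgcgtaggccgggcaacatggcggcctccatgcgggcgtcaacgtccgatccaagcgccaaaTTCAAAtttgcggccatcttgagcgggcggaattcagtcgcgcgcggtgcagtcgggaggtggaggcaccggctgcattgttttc
NUSAP1: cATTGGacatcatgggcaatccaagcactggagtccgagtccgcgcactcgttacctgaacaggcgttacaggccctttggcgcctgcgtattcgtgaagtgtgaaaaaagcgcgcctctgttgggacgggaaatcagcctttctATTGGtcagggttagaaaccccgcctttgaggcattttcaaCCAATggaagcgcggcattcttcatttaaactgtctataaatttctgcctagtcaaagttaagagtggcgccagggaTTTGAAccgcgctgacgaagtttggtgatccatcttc

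The CHR letters began 18 bases before the start in CENPA, 26 and 20 bases before it in ANLN (a pair of adjoining matches), 35 bases before it in KIF15 and 13 bases after it in NUSAP1. CENPA held 2 CCAAT boxes, NUSAP1 held 3, and the windows of ANLN and KIF15 held none. A CHR match was thus present both in the promoter of the member with the highest difference and in those with the lowest.

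The table of promoters held 49 of the 57 measured members. A CHR match lay in 36 of them (73.5%), against 10.8% of 11450 genes above the signal floor and 16.7% of all 27305 genes with a promoter in the table. CCAAT lay in 34 members (69.4%) against 36.1% and 35.7%, and both elements lay in 27 members (55.1%) against 4.64% and 6.63%. The CHR matches of members gathered at the start of the gene, where 29 of 49 members (59.2%) had a match beginning within 50 bases on either side, against 3.0% of genes above the floor. That window was chosen after the positions were seen. A match of letters describes the window and is not a binding site.

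**Figure D1:**
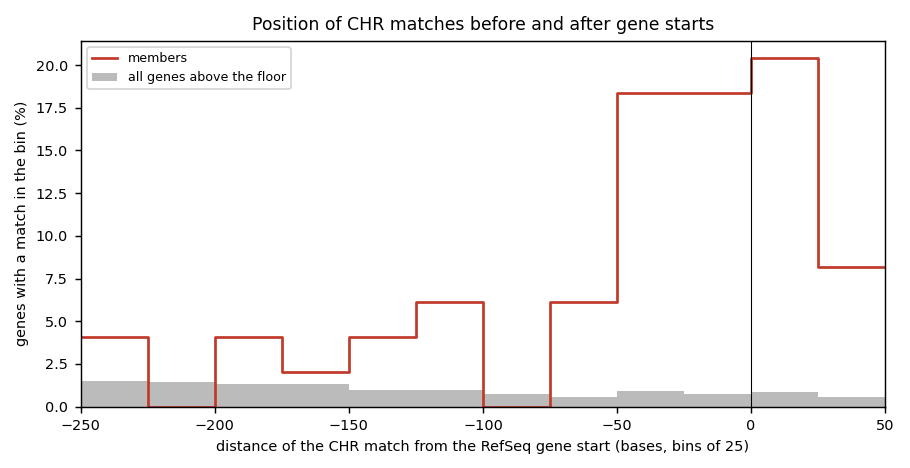
Share of members (red line, n = 49) and of all genes above the floor (grey bars, n = 11450) with a CHR match beginning in each bin of 25 bases, against distance from the RefSeq gene start in bases. The members' line stands at 18.4%, 18.4% and 20.4% in the bins from 50 bases before to 25 bases after the start, where the grey bars stand at 0.908%, 0.760% and 0.856%.

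Most members had a lower signal in OAW42-R, by small amounts. Of the 57, 50 (87.7%) were lower, against 49.7% of all genes above the floor, with a median difference of -0.14 against 0 for all genes. The members were chosen with earlier results of these data known, so this count is not independent evidence. At least 1.2-fold lower (0.26 on the log2 scale) were 17 members, or 29.8%, against 7.34% of all genes. At least 1.2-fold higher were 2 members, or 3.51%, against 9.14%; they were KIF15 and CENPH, and CENPH dropped just below 1.2-fold when the arrays were rescaled. Differences were small, and 1 member, TPX2, passed 1.5-fold in either direction (3.34% of all genes did) and 0 passed 2-fold (0.874% did). The middle of the list, from the 25th to the 75th percentile, ran from -0.29 to -0.08 for members and from -0.10 to 0.11 for all genes. In bulk RNA, fewer cells in G2 and M and less of these transcripts per cell cannot be told apart.

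**Figure D2:**
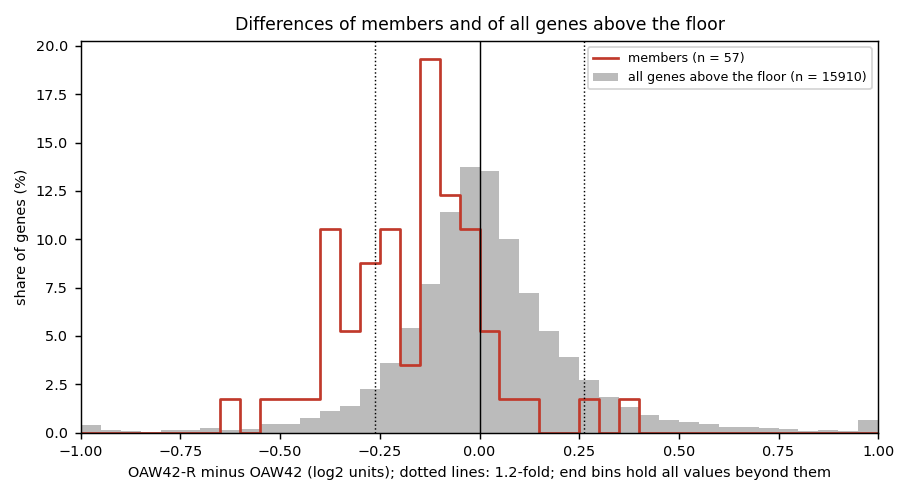
Share of genes (%) by difference in log2 units, in bins of 0.05, for all 15910 genes above the floor (grey) and for the 57 members (red line); dotted lines mark 1.2-fold. All genes centre on 0, and the members' line lies mostly left of it, with 50 of 57 members below 0.

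The 3 genes listed under cytokinesis, the last step of division, were lower, against 49.7% of all genes above the floor. ANLN, which encodes anillin, the scaffold of the contractile ring, measured 11.09 in OAW42-R and 11.59 in OAW42 (-0.50, 1.41-fold lower). ECT2, the exchange factor that switches on RhoA at the division plane, had 10.65 and 11.07 (-0.42). RACGAP1, the partner that brings ECT2 to the spindle midzone, had 10.34 and 10.67 (-0.33). Their median of -0.42 was the lowest of the 11 role groups as drawn here. Members placed in other groups also act in cytokinesis and lay closer to 0, among them KIF20A (-0.14), KIF20B (-0.01) and PRC1 (0.01), and KIF14 differed by -0.37. KIF23, the kinesin that forms centralspindlin with RACGAP1, was also closer to equal, at 11.25 and 11.47 (-0.22).

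Among proteins that build and bundle spindle microtubules, TPX2 had the largest difference of any member. It nucleates microtubules near chromosomes and activates Aurora A, and its signal was 10.73 in OAW42-R and 11.36 in OAW42 (-0.63, 1.55-fold lower). AURKA, the Aurora A kinase itself, had 10.60 and 10.99 (-0.39), so both partners were among the 6 lowest members. ASPM, which acts at spindle poles, had 9.54 and 9.90 (-0.36), and DLGAP5, a kinetochore fibre protein, had 10.14 and 10.41 (-0.27). NUSAP1, which stabilises microtubules near chromatin, differed by -0.14. PRC1, the cross-linker of the spindle midzone, was equal within 0.01 (10.06 and 10.05), and its sign turned when the arrays were centred or quantile-normalised.

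At the outer kinetochore, which grips the microtubules, all 6 members were lower, against 49.7% of all genes, with a median of -0.32. Of these members 4 were at least 1.2-fold lower, against 7.34% of all genes. The kinesin CENPE, which carries chromosomes to the spindle equator, had 8.79 in OAW42-R and 9.14 in OAW42 (-0.35), and the large coiled-coil protein CENPF had 10.40 and 10.77 (-0.37). The 4 subunits of the NDC80 complex, the main microtubule-binding unit, did not differ by the same amount. SPC24 had 9.41 and 9.79 (-0.38) and NUF2 9.19 and 9.48 (-0.29), while their partners NDC80 (8.87 and 9.0, -0.13) and SPC25 (7.99 and 8.06, -0.07) lay closer to 0.

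The inner centromere group went both ways, with 4 of 6 (66.7%) lower, against 49.7% of all genes, and a group median of -0.185. CENPA, the histone H3 variant that marks the centromere, had 8.90 in OAW42-R and 9.41 in OAW42 (-0.51, 1.42-fold lower), the second lowest value of the list. CENPH, CENPI, CENPK and CENPM are subunits of a single assembly of the constitutive kinetochore. In it CENPI (9.11 and 9.40, -0.29) and CENPM (8.72 and 8.96, -0.24) were lower, while CENPH (7.43 and 7.15, 0.28) and CENPK (7.72 and 7.58, 0.14) were higher. CENPH and CENPK were also among the 4 members that did not reach the 75th percentile of all clusters on both arrays; the others were PLK4 and PTTG1. CENPN, which binds the CENPA nucleosome, differed by -0.13.

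The spindle assembly checkpoint holds anaphase until every kinetochore is attached. The 5 measured genes listed under it were all lower, against 49.7% of all genes. Their median was -0.24 with MAD2L2 included, which is related to MAD2L1 but is not a core checkpoint gene. TTK, the kinase at the head of the checkpoint, had 8.88 in OAW42-R and 9.28 in OAW42 (-0.40, 1.32-fold lower). BUB1, a checkpoint kinase of the kinetochore, had 10.55 and 10.79 (-0.24). MAD2L1, the checkpoint effector MAD2, differed by -0.11, and BUB3, the adaptor that brings BUB1 and BUB1B to kinetochores, by -0.09. MAD2L2, which acts mainly in translesion synthesis and DNA end protection, differed by -0.24 (9.01 and 9.25). The shared PAK6 and BUB1B cluster had 8.39 and 8.59 (-0.20).

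The kinases listed outside the checkpoint numbered 5, all lower (against 49.7% of all genes), with a median of -0.16 and AURKA lowest. PLK1, the main Polo-like kinase of mitosis, had 11.59 in OAW42-R and 11.86 in OAW42 (-0.27), just past 1.2-fold. NEK2, which separates centrosomes, differed by -0.16, PLK4, which starts centriole duplication, by -0.10, and MELK, a kinase of proliferating cells, by -0.04. The chromosomal passenger complex corrects faulty attachments. Its 3 listed genes were all lower by small amounts, against 49.7% of all genes, with a median of -0.10. AURKB, its Aurora B kinase, had 9.34 and 9.38 (-0.04), its scaffold INCENP differed by -0.11, and CDCA8, or borealin, by -0.10.

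**Figure D3:**
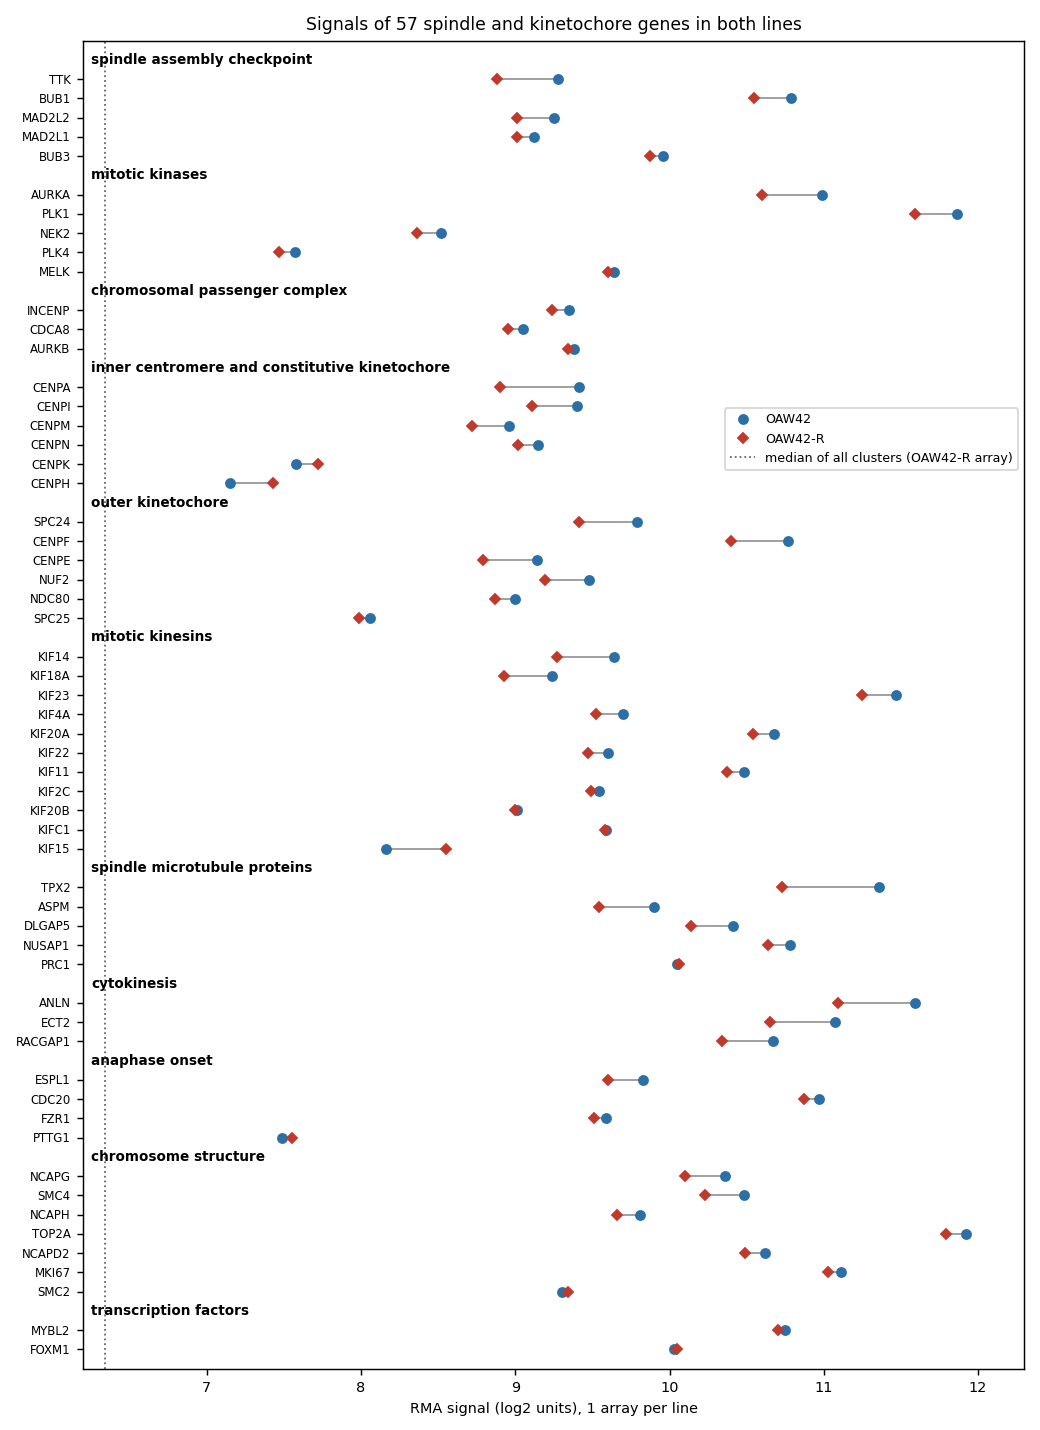
RMA signal in log2 units (x axis) of each of the 57 measured members on the OAW42 array (blue circles) and the OAW42-R array (red diamonds), by role; 1 array per line, so no error bars. The red point lies left of the blue point for 50 members, with the widest gaps at TPX2 (-0.63), CENPA (-0.51) and ANLN (-0.50), and lies clearly to the right for KIF15 (0.39), CENPH (0.28) and CENPK (0.14).

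Of the 11 mitotic kinesins, 10 (90.9%) were lower, against 49.7% of all genes, and the group median was -0.13. KIF14, which acts in cytokinesis, had 9.27 in OAW42-R and 9.64 in OAW42 (-0.37), and KIF18A, which dampens chromosome oscillations, had 8.93 and 9.24 (-0.31). KIF11, the Eg5 motor that pushes spindle poles apart, differed by -0.11 (10.37 and 10.48). KIF15, which can take over this task from KIF11, was the exception, with 8.55 and 8.16 (0.39, 1.31-fold higher). Chromosome-arm motors KIF4A and KIF22 differed by -0.18 and -0.13, the midzone motors KIF20A and KIF20B by -0.14 and -0.01, and the microtubule depolymeriser KIF2C by -0.05. The minus-end motor KIFC1 had 4 clusters, 3 of them on alternative haplotypes of the MHC region, and each differed by -0.01.

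At anaphase onset the anaphase-promoting complex, switched on by CDC20 and later by FZR1, destroys securin (PTTG1) and so frees separase (ESPL1). ESPL1 had 9.60 in OAW42-R and 9.83 in OAW42 (-0.23), CDC20 10.87 and 10.97 (-0.10), and FZR1 9.51 and 9.59 (-0.08). PTTG1, at 7.55 and 7.49, differed by 0.06. None of these 4 members passed 1.2-fold, where 7.34% of all genes were at least that much lower and 9.14% higher.

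Genes of chromosome structure had a median of -0.13, and 6 of 7 (85.7%) were lower, against 49.7% of all genes. The condensin subunits that compact chromosomes ranged from -0.26 for NCAPG (10.10 and 10.36) and -0.25 for SMC4 (10.23 and 10.48) over NCAPH (-0.15) and NCAPD2 (-0.13) to 0.04 for SMC2 (9.34 and 9.30), the partner of SMC4. NCAPG and SMC4 lay just short of 1.2-fold. TOP2A, the topoisomerase that untangles sister chromatids, differed by -0.13 (11.79 and 11.92), and MKI67, the widely used proliferation marker Ki-67, by -0.08 (11.03 and 11.11).

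The transcripts of FOXM1 and MYBL2, the 2 transcription factors of the list, were near equal. FOXM1 had 10.05 in OAW42-R and 10.03 in OAW42 (0.02), and MYBL2 had 10.70 and 10.75 (-0.05). Members with a CHR match within 50 bases of the start had a median difference of -0.13 (26 of 29 lower), and those without one had -0.135 (18 of 20 lower). Among other genes above the floor with such a match, 166 of 315 (52.7%) were lower, near the 49.7% of all genes, with a median of -0.02. The 315 were drawn from the 11450 genes above the floor with a promoter in the table, whereas the 49.7% is over all 15910. Activity of FOXM1 and MYBL2 was not measured, and the part of either factor in the members' differences was not tested.

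**Figure D4:**
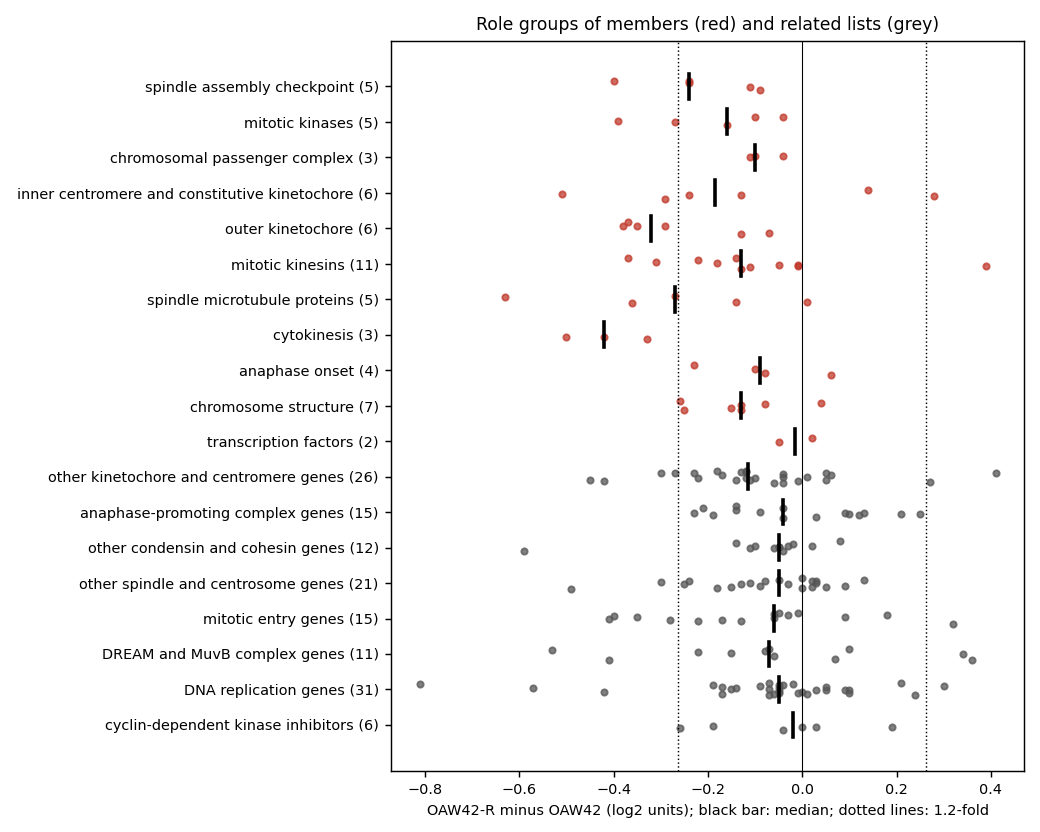
Difference in log2 units (x axis) of each member by role group (red points) and of genes in related lists (grey points); the number of genes is given after each name, black bars are medians and dotted lines mark 1.2-fold. Cytokinesis (-0.42) and the outer kinetochore (-0.32) have the lowest medians, and the medians of the related lists lie between -0.115 and -0.02.

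Other genes of the same processes had list medians closer to 0 than the members' -0.14. Of 26 other kinetochore and centromere genes above the floor, 20 (76.9%) were lower, against 49.7% of all genes, with a median of -0.115. In this list 4 genes were at least 1.2-fold lower and 2 at least 1.2-fold higher, where 7.34% and 9.14% of all genes were, so the higher count was near that of all genes. CENPU, a constitutive kinetochore subunit, differed by -0.45, HJURP, the chaperone that loads CENPA, by -0.42 (9.23 in OAW42-R and 9.65 in OAW42), and SGO2, a shugoshin, by -0.30. SGO1, the shugoshin that protects cohesion at centromeres, differed by 0.41. Among 15 mitotic entry genes 12 (80%) were lower, with a median of -0.06, and 4 passed 1.2-fold on the lower side and 1 on the higher. BORA, a PLK1 activator, differed by -0.41, the kinase PBK by -0.40 and GTSE1 by -0.35, while CKS2, a subunit of cyclin-dependent kinase complexes, differed by 0.32.

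Of 15 genes of the anaphase-promoting complex and its partners 8 (53.3%) were lower, near the 49.7% of all genes, with a median of -0.04 and 0 past 1.2-fold. CDC26 (0.25) and ANAPC16 (0.21) were the highest subunits, and the ubiquitin-conjugating enzyme UBE2S (-0.23) and the inhibitor FBXO5 (-0.21) the lowest. Of 12 other condensin and cohesin genes 10 were lower, and the median over all 12 was -0.05. The cohesin subunit SMC3 differed by -0.59 (9.45 and 10.04), NCAPH2 by -0.14, SMC1A by -0.11 and the cohesin loader NIPBL by -0.10. Of 21 other spindle and centrosome genes 12 (57.1%) were lower, 7 were higher by at most 0.13 and 2 were equal, with a median of -0.05. The largest differences in that list were all on the lower side, where the microtubule end-binding protein MAPRE1 differed by -0.49, CKAP2L by -0.30, CEP55 by -0.25 and CKAP5 by -0.24.

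Regulators of the cycle went both ways. Of 11 DREAM and MuvB genes 7 (63.6%) were lower, against 49.7% of all genes, and the list median was -0.07. LIN54, the MuvB subunit that binds the CHR, had 7.83 in OAW42-R and 8.36 in OAW42 (-0.53), and RBL1, the pocket protein p107, had 8.35 and 8.76 (-0.41), while TFDP2 (0.36) and RBBP4 (0.34) were higher. Of 6 inhibitors of cyclin-dependent kinases 3 (50%) were lower, near the 49.7% of all genes, and the list median was -0.02. CDKN1A (p21) differed by -0.26, CDKN1C by -0.19 and CDKN2A by 0.19. Of 31 DNA replication genes 20 (64.5%) were lower, against 49.7% of all genes, and the median over all 31 was -0.05. The helicase genes MCM5 (-0.81), CDC45 (-0.57) and GINS3 (-0.42) were lowest, and GINS2 stood at 0.30. MCM5 and CDC45 lie on chromosome 22, where 76.6% of all genes above the floor were lower. With 1 array per line no difference between these lists and the members can be tested.

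The position of a member on its chromosome was compared next, to see how far its difference was shared by the genes around it. For each member the median difference of the 10 genes above the floor on each side was taken, with any other members among them kept. These medians were below 0 for 26 of 57 members, ranged from -0.195 to 0.205 and had a median of 0. The members lay below their neighbours in 50 of 57 cases, against 49.3% of all placed genes, and the median of member minus neighbours over all 57 was -0.145. Across the 57 members the difference and the neighbour median had a Pearson r of 0.44; it is a description over genes of the same pair of arrays.

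KIF15 lay on chromosome 3 among genes that were themselves higher, with 2 of its 20 neighbours lower and a neighbour median of 0.18. CENPH and CENPK lie in 1 stretch of chromosome 5 with neighbour medians of 0.01 and 0.035, so they stood above their surroundings by 0.27 and 0.105. Each was counted among the neighbours of the other, as were KIF11 and KIF20B on chromosome 10. On the lower side DLGAP5 had the lowest neighbour median of any member, -0.195, on chromosome 14, where 69.6% of genes were lower, and its difference minus that median was -0.075. CENPM, on chromosome 22 with 76.6% lower, had neighbours at -0.095 and lay at -0.145 relative to them. TPX2 and AURKA lie on chromosome 20, where 63.2% of genes were lower. Their neighbour medians were -0.085 and -0.135, and their own differences minus these were -0.545 and -0.255. MYBL2 on the same chromosome differed by -0.05 beside neighbours at 0.02. CENPA (neighbours -0.02), TTK (0) and SPC24 (0) lay in stretches near 0. CDC20 and CDCA8, at -0.10 each, lay among genes with medians of 0.205 and 0.17.

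**Figure D5:**
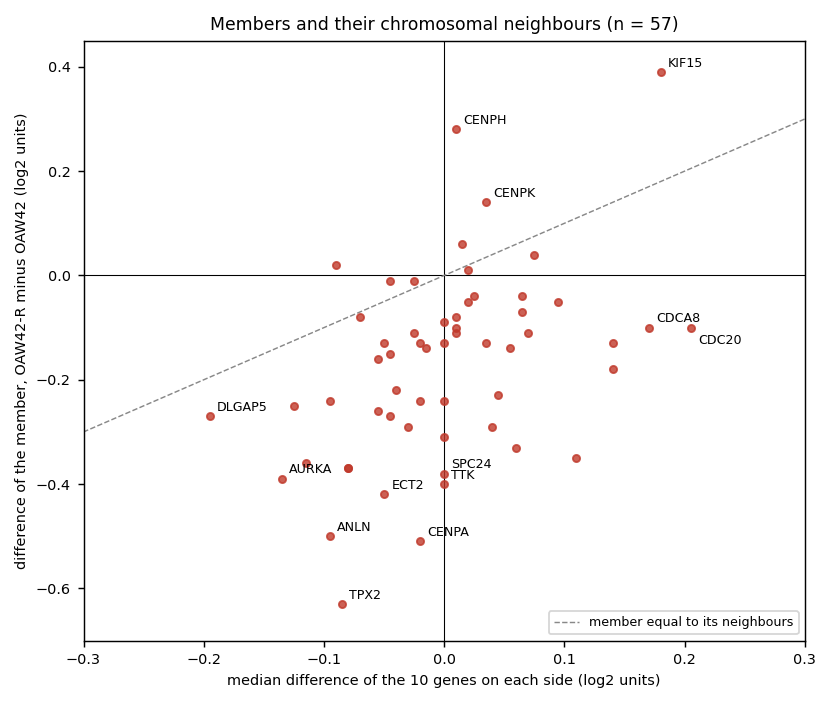
Difference of each of the 57 members (y axis, log2 units) against the median difference of the 10 genes on each side (x axis, log2 units); the dashed line marks equality and named points are those farthest out. Most points (50) lie below the dashed line, TPX2 (-0.63 beside -0.085) lowest, and KIF15 (0.39 beside 0.18) highest.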

How the data were processed

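Total RNA of 1 sample per line (100 ng) was converted to biotin-labelled cDNA and hybridised to an Affymetrix human transcriptome array. The authors normalised all samples together by RMA, and deposited 1 log2 signal for each transcript cluster, rounded to 2 decimals. RMA makes arrays alike in distribution, which hides a shift in total RNA, and compresses large folds. The genome build of the array annotation was not given in the sources used here.

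Clusters with 1 symbol in the platform annotation (23780 of 67524) were named, and symbols were updated with RefSeq genes of GRCh38.p14; 62 genes of the Y chromosome or XIST were left out. Each gene was taken from its cluster with the highest mean. Differences, counts at 1.2-fold, 1.5-fold and 2-fold, medians, neighbour medians and promoter letters were computed without any test. For genes with several promoter windows the most upstream start was used. Sequences are from RefSeq. All members could be named; of each related list, up to 4 genes with the largest differences were. The members and lists were chosen with earlier results of these data known, among them a lower proliferation list, so the lean is not independent evidence. Alternatives were 3 rescalings, 2 floors, other cluster choices, other folds, 20 neighbours on each side and a shorter promoter window. The steps were checked on simulated data. Protein sequences were not used here. The number of arrays limits the precision. Scripts ran in Python 3.11.15 with pandas 2.3.3, numpy 2.4.6, matplotlib 3.10.9 and, for loess, statsmodels 0.14.6.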

Additional observations from a re-analysis of the deposited data

How the results depend on the processing

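No paired analysis was possible because each line had 1 array, and for the same reason no replicate could be left out. The number of members lower in OAW42-R was 50 or 51 of 57 under each rescaling and cluster choice and with no floor. With the floor at the 75th percentile it was 49 of 53 (92.5%). Of all genes 47.2% to 58.9% were lower in these settings, and the member median lay between -0.16 and -0.14. Counting the shared PAK6 and BUB1B cluster as BUB1B, chosen after the data were seen, gave 51 of 58 lower. Thresholds moved counts by construction: 29 members were at least 1.1-fold lower, 7 at least 1.3-fold lower and 1 at least 1.3-fold higher. The members at least 1.2-fold higher numbered 1 after centring, quantile normalisation, loess or with the floor at the 75th percentile, in each case without CENPH. Medians of the related lists moved by amounts as large as some of them: the anaphase-promoting complex list ran from -0.07 with quantile normalisation to -0.005 with no floor, and the spindle and centrosome list reached -0.095 with quantile normalisation. A floor at the 75th percentile left CENPH and CENPK out of the inner centromere group and gave it a median of -0.265. With 20 neighbours on each side 48 members lay below their neighbours, and in the shorter promoter window 25 held both elements.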
